A study of Mus musculus with 2 samples.

Results

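The genes described here encode the main proteins of basement membranes and the integrins that bind them. They are 33 genes listed by symbol, out of 27998 genes in the count table: 6 collagen IV chains (Col4a1 to Col4a6), 10 laminin chains (Lama1 to Lama5, Lamb1 to Lamb3, Lamc1 and Lamc3), the nidogens Nid1 and Nid2, the heparan sulfate proteoglycans Hspg2 (perlecan) and Agrn (agrin), the integrin ligand Npnt (nephronectin), 7 integrin alpha chains and 5 integrin beta chains. Each symbol matched 1 row. The rule that lists them uses no measured value.

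The data are 2 droplet single-cell RNA libraries from mouse lungs at postnatal day 10, 1 from a mutant and 1 from a control, made from epithelial, immune, endothelial and mesenchymal cells purified by flow cytometry. The label of the mutant library names Nkx2-1 and Aqp5, the label of the control library also names Nkx2-1, and no label gives the alleles, the strain, the sex or the number of animals behind either library. Nkx2-1 encodes a homeodomain transcription factor of lung epithelium. The product of Aqp5 is an aquaporin found in alveolar type 1 (AT1) cells, which spread thinly over most of the gas exchange surface. The series' title places the study in the control of AT1 cell development and maintenance by Nkx2-1. With 1 library per genotype there is no test across samples: every interval is a 95% interval that covers counting error only, and stands as a range after its ratio or fold. A difference between the libraries cannot be told apart from one between animals, sorts or library preparations.

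Basement membranes are thin sheets of matrix under epithelia and endothelia and around muscle cells and pericytes. Laminin heterotrimers and a network of collagen IV heterotrimers form the scaffold, which nidogens and proteoglycans link, and integrins, each a pair of 1 alpha and 1 beta chain, anchor cells to it. In the alveolus, the membranes of AT1 cells and of capillary endothelium are largely fused into a single sheet through which gas diffuses. Collagen IV chains assemble in fixed combinations, and the chains encoded by Col4a3, Col4a4 and Col4a5 form a trimer of their own beside the widespread trimer of Col4a1 and Col4a2 chains.

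The 6 collagen IV genes lie in 3 head-to-head pairs whose members start close together on opposite strands. In GENCODE M21 (mouse build GRCm38), Col4a4 and Col4a3 on chromosome 1 start 72 bases apart, Col4a1 and Col4a2 on chromosome 8 start 21 bases apart with first exons that overlap, and Col4a6 and Col4a5 on the X chromosome start 1309 bases apart. The partners of each pair differed in the same direction in the AT1 compartment (Col4a5 and Col4a6 did not in mesenchyme), so their promoters are printed, from RefSeq (GRCm38.p6), as 300 bases that run from 250 bases before the start to 50 bases after it, 5′ to 3′ on the gene's own strand. The Col4a4 window, chr1:82586800-82587099 on the minus strand, also holds the start of Col4a3, which has no entry of its own in the table used. The Col4a1 window, chr8:11312777-11313076 on the minus strand, holds the start of Col4a2. The other windows are chrX:141474027-141474326 on the minus strand and chrX:141475169-141475468 on the plus strand. Capitals mark matches to CACTTG (the core of the NKX2-1 motif), GGAATG (the core of the TEAD motif) or CCAAT, on either strand.
Col4a4: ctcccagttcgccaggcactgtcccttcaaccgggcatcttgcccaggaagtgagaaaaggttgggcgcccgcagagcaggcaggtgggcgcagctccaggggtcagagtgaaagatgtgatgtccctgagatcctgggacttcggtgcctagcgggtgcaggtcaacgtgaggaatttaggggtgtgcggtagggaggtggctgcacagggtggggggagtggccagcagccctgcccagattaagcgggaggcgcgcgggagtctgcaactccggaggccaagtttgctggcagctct
Col4a1: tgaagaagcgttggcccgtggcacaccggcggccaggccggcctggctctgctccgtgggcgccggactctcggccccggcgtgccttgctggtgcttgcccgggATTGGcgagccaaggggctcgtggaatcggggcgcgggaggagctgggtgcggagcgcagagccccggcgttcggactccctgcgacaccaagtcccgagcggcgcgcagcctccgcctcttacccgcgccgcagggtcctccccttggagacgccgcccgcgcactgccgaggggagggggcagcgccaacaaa
Col4a6: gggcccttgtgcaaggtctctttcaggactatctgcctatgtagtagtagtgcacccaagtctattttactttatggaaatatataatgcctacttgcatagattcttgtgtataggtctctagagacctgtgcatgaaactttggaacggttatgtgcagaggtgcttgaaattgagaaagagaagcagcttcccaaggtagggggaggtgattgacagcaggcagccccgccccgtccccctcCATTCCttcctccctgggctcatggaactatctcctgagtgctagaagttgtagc
Col4a5: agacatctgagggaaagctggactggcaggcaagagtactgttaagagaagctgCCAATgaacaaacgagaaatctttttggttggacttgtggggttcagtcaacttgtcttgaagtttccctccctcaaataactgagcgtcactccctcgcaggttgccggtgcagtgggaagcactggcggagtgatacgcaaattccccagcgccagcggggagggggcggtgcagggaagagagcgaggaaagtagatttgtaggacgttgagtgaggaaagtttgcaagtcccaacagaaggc
The Col4a4 window held none of the 3 motifs. The Col4a1 window held CCAAT on the opposite strand 145 bases before the start, the Col4a5 window held CCAAT 196 bases before it, and the Col4a6 window held the TEAD core on the opposite strand 5 bases before it. Of the 33 genes, 24 matched the promoter table, with 29 windows. The NKX2-1 core was in 4 of these 29 windows (13.8%), those of Itga8, Itgb5, Lamb1 and Lamb3, against 13.6% of all 32841 promoter windows. The TEAD core was in 4 (13.8%, against 14.7% of all), and CCAAT in 7 (24.1%, against 37.4%). These are descriptions of letters in windows, and say nothing of binding by a factor.

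The mutant library held 4551 cell barcodes with a median of 8305 unique molecular identifiers (UMIs, each a captured RNA molecule), and the control library 4461 barcodes with a median of 5943. They shared 27 barcode sequences. After filters on genes, mitochondrial share, doublet score and mixed clusters, 4175 mutant and 3953 control cells remained. All epithelial cells outside the clusters named by markers as AT2-like (surfactant-producing type 2 cells), club-like or ciliated-like were pooled as the AT1 compartment, because AT1 markers themselves differed between the libraries. Nkx2-1 had 13.5 UMIs per 1000000 summed UMIs of the class (CPM) in the mutant AT1 compartment, against 486 CPM in the control AT1 compartment, and 312 CPM in mutant AT2-like cells, against 348 CPM in control AT2-like cells. Which part of the gene the mutation removes is not given in the sources used here, so a 3′ count of it is a limited check of the label. The 14 AT1 markers summed to 4095 CPM in the mutant compartment and 40998 CPM in the control compartment, none at 0 in either, while the 7 epithelial lineage markers summed to 5049 CPM and 5230.1 CPM. These 7 markers, Nkx2-1 among them, also assigned clusters to the epithelial lineage, so their sums are no separate check that the cells were epithelial. In the mutant the compartment held mostly cells outside AT1-like clusters. The mutant cells lay mainly in 5 clusters with at most 1 control cell (2049 of 2222 cells), and the control cells mainly in 1 AT1-like cluster (510 of 557 cells). A cluster here may thus stand for its library rather than a cell state. Free RNA differed too: after thinning to 1500 UMIs a cell, Sftpc, a surfactant gene of AT2 cells, was seen in 21.2% of mutant endothelial cells and 94.6% of control endothelial cells.

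In the AT1 compartment the scaffold genes were mostly lower in the mutant, while integrin genes went both ways. Of the 33 members, 25 could be measured (at least 20 UMIs over both libraries, and above the limit that 3 counts allow where 1 library held none). Of these, 13 were at least 2-fold lower and 6 at least 2-fold higher, while the other 6 lay within 2-fold. Over all 12697 genes measured in the compartment, 12.4% were at least 2-fold lower and 22.0% at least 2-fold higher. The share of members at least 2-fold higher was thus close to that of all genes. The median log2 ratio, mutant over control, was -1.04 over the 25 members and 0.16 over all genes measured. The 8 members without a ratio there were Lama1, Lama2, Lama4, Lamc3, Nid2, Itga2, Itga8 and Itgb8, with at most 23 mutant and 2 control UMIs each.

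**Figure D1:**
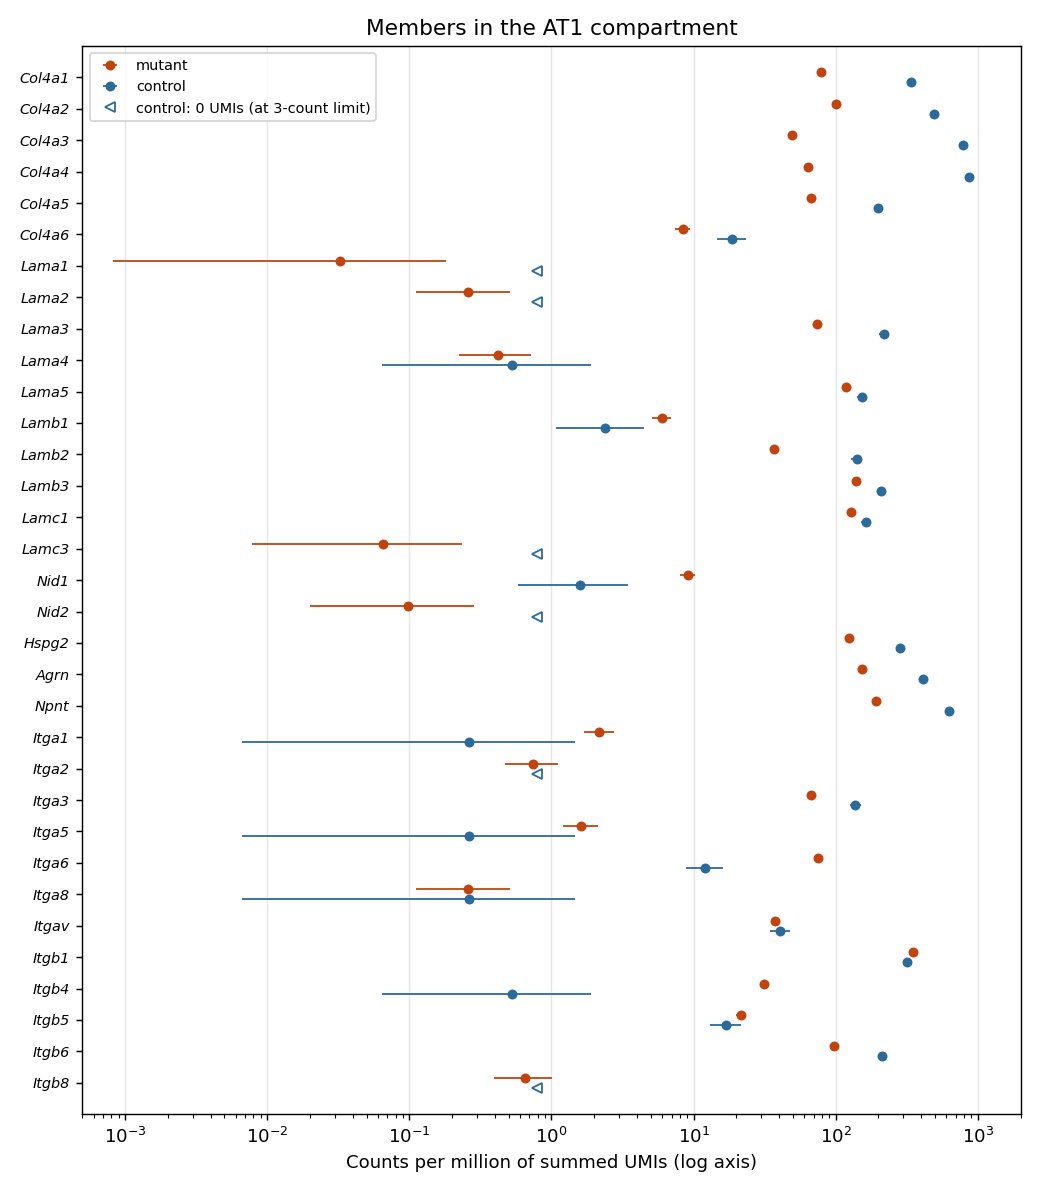
Level of each of the 33 genes in the AT1 compartment, in CPM on a log axis, for the mutant (orange) and the control library (blue). Bars are exact Poisson 95% intervals and open triangles mark genes with 0 control UMIs, drawn at the level of 3 counts: the 6 collagen IV genes are lower in the mutant, and Itga6 and Itgb4 are higher.

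All 6 collagen IV genes were at least 2-fold lower in the mutant compartment, and the Col4a3 and Col4a4 pair was the lowest. Within cluster 9, the cluster of the compartment that holds cells of both libraries in number, none of the 5 that could be measured was lower. Its control cells were few (46) and unlike the main control cluster, 3: Col4a3 had 263 CPM in them, against 836 CPM in control cluster 3. Col4a3, which encodes the alpha 3 chain, had 49.5 CPM in the mutant AT1 compartment, against 782 CPM in the control, and was 15.8-fold lower (14.9 to 16.8). Col4a4, its partner on the opposite strand, had 64.0 CPM in the mutant and 873 CPM in the control, and was 13.6-fold lower (12.9 to 14.4). The 2 genes of the pair that encodes the widespread trimer were lower by a smaller factor. Col4a1 had 79.1 CPM in the mutant and 338 CPM in the control (4.27-fold lower, 3.99 to 4.57), and Col4a2 had 101 CPM and 490.1 CPM (4.87-fold lower, 4.6 to 5.16). Col4a5, on the X chromosome, had 66.7 CPM in the mutant, against 199.7 CPM in the control (3.0-fold lower, 2.75 to 3.26). Col4a6, its neighbour, had 8.37 CPM in the mutant, against 18.7 CPM in the control (2.23-fold lower, 1.69 to 2.91). The summed level of the 6 genes was 368 CPM in the mutant compartment and 2701 CPM in the control compartment.

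The laminin genes split by chain. Lama3, the alpha chain of epithelial laminins that also contain the beta 3 chain, had 73.4 CPM in the mutant and 218 CPM in the control (2.96-fold lower, 2.73 to 3.21). Lamb2, a beta chain, had 36.7 CPM in the mutant and 141 CPM in the control (3.83-fold lower, 3.45 to 4.25). The remaining chains of the AT1 compartment changed less. Lamb3 had 139 CPM in the mutant and 209 CPM in the control (1.5-fold lower, 1.39 to 1.62), Lama5 had 119 and 153 CPM (1.29-fold lower, 1.18 to 1.41), and Lamc1, the gamma chain shared by most laminins, had 129 and 163 CPM (1.26-fold lower, 1.16 to 1.37). Lamb1 went the other way from a low level, with 5.97 CPM in the mutant (184 UMIs), against 2.37 CPM in the control (9 UMIs), a ratio of 2.52 (1.30 to 5.6).

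Both proteoglycans and nephronectin were lower in the mutant compartment. Npnt, a ligand of the integrin formed by the alpha 8 and beta 1 chains, had 192 CPM in the mutant, against 626 CPM in the control (3.27-fold lower, 3.11 to 3.43). Agrn had 153 CPM in the mutant and 412 CPM in the control (2.69-fold lower, 2.54 to 2.85), and Hspg2 had 124 and 283 CPM (2.28-fold lower, 2.13 to 2.44). Nid1, whose product links laminin to collagen IV, was low in both libraries and higher in the mutant, with 9.12 CPM (281 UMIs) in the mutant and 1.58 CPM (6 UMIs) in the control, a ratio of 5.78 (2.62 to 15.9).

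Among the integrin genes of the compartment, the subunits that pair with each other in hemidesmosomes, alpha 6 and beta 4, were higher in the mutant. Itga6 had 75.6 CPM in the mutant AT1 compartment, against 12.1 CPM in the control, and was 6.25-fold higher (4.67 to 8.55). Itgb4 had 31.4 CPM in the mutant (969 UMIs) and 0.526 CPM in the control (2 UMIs), a ratio of 59.8 (16.5 to 494). The width of that interval comes from the 2 control UMIs. Itga3, the partner of beta 1 in a laminin receptor, had 67.1 CPM in the mutant and 138 CPM in the control (2.06-fold lower, 1.86 to 2.26). Itgb6, the epithelial partner of alpha v in a receptor that activates latent TGF-beta, had 97.1 and 213 CPM (2.20-fold lower, 2.03 to 2.37). The genes of the partner chains of alpha 3 and beta 6, Itgb1 and Itgav, lay within 2-fold in the whole compartment, as did Itgb5. Itgb1, the beta chain shared by most matrix-binding integrins, had 349 CPM in the mutant and 319 CPM in the control, a ratio of 1.09 (1.03 to 1.16). The ratio was 0.918 (0.775 to 1.09) for Itgav (37.4 CPM in the mutant, 40.8 CPM in the control) and 1.28 (0.986 to 1.68) for Itgb5 (21.5 and 16.8 CPM). In AT1-like clusters alone, however, Itgb5 was lower in the mutant, with a log2 ratio of -2.11: it had 3.98 CPM in mutant cells of cluster 9, against 18.6 CPM in control cells of cluster 3, where most AT1-like cells of each library lay. Itga1 (67 mutant UMIs, 1 control UMI) and Itga5 (50 and 1) were higher from near 0, with ratios of 8.26 (1.43 to 331) and 6.17 (1.06 to 248). Itga8 had 8 mutant UMIs and 1 control UMI.

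The share of AT1 compartment cells with at least 1 UMI gave the same order of libraries after each cell had been thinned to 1500 UMIs. Col4a3 was seen in 8.10% (7.0 to 9.31) of 2222 mutant cells and 60.1% (55.9 to 64.2) of 557 control cells, with exact binomial intervals. Npnt was seen in 23.4% of mutant cells and 54.4% of control cells. Itga6 was seen in 10.7% of mutant cells and 1.97% of control cells, and Itgb4 in 3.56% and 0.180% (1 control cell). As a measure of background, Col4a3 was seen in 0 of 482 mutant endothelial cells, which allows a share of up to 0.622%, and in 0.849% of control endothelial cells. Itgb4 was seen in 0 of 1010 mutant mesenchymal cells, which allows a share of up to 0.297%, and in 0.185% of control mesenchymal cells. The Itgb4 share of control AT1 compartment cells was thus at the background of control mesenchymal cells. Before thinning, Col4a3 was seen in 24.9% of mutant and 92.8% of control compartment cells, and Itgb4 in 31.1% and 0.359%. The median depth before thinning was 12295 UMIs in mutant and 6452 in control compartment cells, 5278 and 4391 in endothelial cells, and 5493 and 6026.5 in mesenchymal cells.

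The size of these differences, and for some members the direction, depended on which cells entered the comparison. In AT1-like clusters alone (173 mutant and 556 control cells), the log2 ratio of Col4a3 was -1.21, against -3.98 in the whole compartment, and the median of the 20 members measured was -0.60, with 6 at least 2-fold lower and 1 at least 2-fold higher (against 8.00% and 6.30% of all genes measured in those clusters). These ratios compare different clusters, since 169 of the 173 mutant cells lay in cluster 9 and 510 of the 556 control cells in cluster 3. Within cluster 9 alone (169 mutant and 46 control cells), a comparison chosen after the data had been seen, the median of the 18 members measured was 0.31, and the log2 ratios of Col4a1 to Col4a5 lay between 0.23 and 0.35, opposite in sign to the whole compartment. In cells with no UMI of a proliferation gene (466 mutant and 331 control cells), 8 members were at least 2-fold lower. Over all epithelial cells, of which AT2-like cells were 215 of 2505 in the mutant and 1254 of 1949 in the control, the median turned to 0.47, and the log2 ratios of Agrn (0.25), Col4a6 (0.29), Lama3 (0.067), Hspg2 (0.43), Itga3 (0.52), Itgb6 (0.66) and Lamb1 (-1.81) changed sign. The 8 proliferation markers summed to 995 CPM in the mutant compartment and 87.1 CPM in the control compartment, and their part in the member ratios beyond these values was not tested.

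Within the mutant compartment the levels differed by cluster. Cluster 5, led by Kcne2, Sfn and the AT1 marker Akap5 (392 mutant cells, no control cell), had the highest level of the 5 mutant clusters for 15 of the 20 members that reached 20 CPM in any of them. Cluster 1, led by Agr2, Spink4 and the gastric marker Tff1 (607 mutant cells), had the lowest for 13 of them. The shares of all genes that were highest or lowest in these clusters were not computed, so the counts cannot be read as particular to the members. The minimum of 20 CPM was also set on the highest cluster, and Col4a3 reached it in cluster 5 only. Col4a3 had 174 CPM in cluster 5 and 1.33 to 18.3 CPM in clusters 1, 4, 6 and 7, against 836 CPM in the control cells of cluster 3, the main AT1-like cluster. Cluster 5 thus stood between the other mutant clusters and the control for Col4a3. For Lama3, cluster 5 had 197 CPM, against 226 CPM in control cluster 3 (ratio 0.872, 0.792 to 0.960), while mutant cluster 1 had 15.8 CPM. For Hspg2 it had 238 CPM, against 294 CPM in control cluster 3 (ratio 0.808, 0.742 to 0.881), and for Itgb6 196 CPM, against 226 CPM (ratio 0.868, 0.788 to 0.956). These 3 genes were thus close to the control in cluster 5, where Col4a3 and Col4a4 were not (ratios 0.208, 0.192 to 0.225, and 0.212, 0.197 to 0.228).

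**Figure D2:**
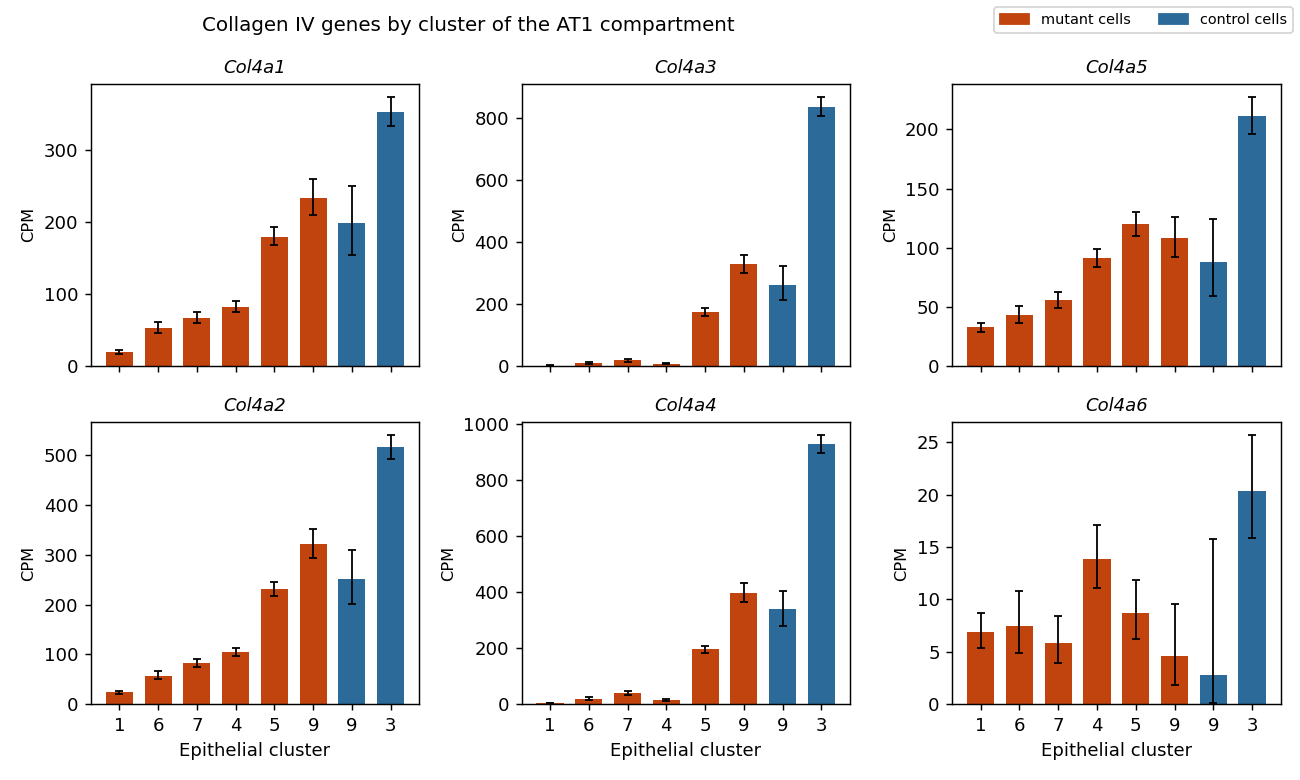
CPM of the 6 collagen IV genes in each cluster of the AT1 compartment, with mutant cells in orange and control cells in blue; bars start at 0 and error bars are exact Poisson 95% intervals. For Col4a1 to Col4a4, mutant cells of clusters 1, 6, 7 and 4 are the lowest, mutant cells of cluster 5 lie between them and the control cells of cluster 3, and within cluster 9, which holds cells of both libraries, the intervals of mutant and control cells overlap.

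Npnt, Itga6 and Itgb4 followed another order. Npnt was highest among the 5 mutant clusters in cluster 4, led by Sprr1a, Tm4sf1 and Sema3c (445 mutant cells), with 289 CPM, and had 177 CPM in cluster 5, against 644 CPM in control cluster 3. Itga6 had 60.4 to 95 CPM over the 5 mutant clusters, all above the 11.3 CPM of control cluster 3. Itgb4 had 22.1 to 45.5 CPM in them, against 0.581 CPM in control cluster 3. For both genes cluster 4 was the highest and cluster 5 the lowest of the 5. The remaining cluster, 9, was AT1-like and held cells of both libraries (169 mutant, 46 control). There Col4a3 had 328 CPM in mutant cells and 263 CPM in control cells, a ratio of 1.25 (0.999 to 1.58), and Col4a4 398 and 339 CPM, a ratio of 1.17 (0.964 to 1.44). Both intervals include 1. Some members that were lower over the whole compartment were higher in the mutant cells of cluster 9 beyond counting error: the ratio was 1.28 (1.02 to 1.62) for Col4a2, 1.95 (1.28 to 3.12) for Lamc1, 1.79 (1.18 to 2.80) for Itga3 and 1.56 (1.06 to 2.35) for Itgb6. Itgb4 had 0.663 CPM (1 UMI) in mutant cells of cluster 9 and none in its control cells. Npnt had 307 CPM in mutant cells and 449 CPM in control cells of the cluster (ratio 0.683, 0.569 to 0.823), and Itgb1 388 and 198 CPM (ratio 1.96, 1.53 to 2.55). Nkx2-1 itself had 183 CPM in mutant cells of cluster 9 and 523 CPM in its control cells, against 2.05 to 13.8 CPM in the 5 mutant clusters. The AT2 marker Sftpc had 23653 CPM in the mutant and 81685 CPM in the control cells of cluster 9. In control cells of cluster 3 it had 4872 CPM.

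Genes that act on or beside the members were described from 6 lists. Of 20 other basement membrane components, 14 were measured in the AT1 compartment, with 6 at least 2-fold lower and 5 at least 2-fold higher in the mutant (median log2 -0.47). As given above, 12.4% of all genes measured in the compartment were at least 2-fold lower and 22.0% at least 2-fold higher, and the counts of each list stand against these shares. Sparc, a collagen-binding matricellular protein, had 729 CPM in the mutant and 7652 CPM in the control (10.5-fold lower, 10.3 to 10.7), and Fn1 (fibronectin) had 86.3 and 3.68 CPM (23.4-fold higher, 13.9 to 42.9). Of the collagen folding, crosslinking and secretion genes, 6 of 14 measured were at least 2-fold lower and 2 higher. The lysyl hydroxylase Plod2 had 4.87 CPM in the mutant and 147 CPM in the control (30.2-fold lower, 25.2 to 36.4), and the crosslinking enzyme Lox had 5.0 and 99.2 CPM (19.8-fold lower, 16.4 to 24.1). P3h1, a prolyl hydroxylase, was 9.28-fold lower (7.0 to 12.3). Mia3, needed for collagen export from the endoplasmic reticulum, was 2.09-fold higher (1.64 to 2.69). Of the proteases and inhibitors, 2 of 7 were at least 2-fold lower and 3 higher, with the metalloproteinase Mmp11 9.17-fold lower (8.38 to 10.0) and the metalloproteinase inhibitor Timp3 at 248 CPM in the mutant and 945 CPM in the control.

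On the receptor side, 4 of 6 other integrin subunits measured in the AT1 compartment were at least 2-fold lower in the mutant and 1 higher, against the same 12.4% and 22.0% of all genes. Itga9 had 4.74 CPM in the mutant and 41.8 CPM in the control, and Itgb3 was 4.20-fold lower (3.32 to 5.29). Of 9 other matrix receptors, 4 were at least 2-fold lower, among them the laminin receptors Dag1 (2.32-fold lower, 2.22 to 2.42) and Bcam (2.35-fold lower, 2.28 to 2.42) and the collagen receptor Ddr1 (2.81-fold lower, 2.56 to 3.09). The syndecan Sdc2 was 2.91-fold higher (1.99 to 4.41). Of 16 integrin adaptor genes measured, 4 were at least 2-fold lower and 3 higher. Lims2, a partner of integrin-linked kinase, had 1.59 CPM in the mutant and 136 CPM in the control (85.4-fold lower, 63.6 to 117). The kindlins, which activate integrins, went opposite ways: Fermt2 had 61.5 CPM in the mutant and 272 CPM in the control (4.43-fold lower, 4.10 to 4.78), and Fermt1 had 29.8 CPM in the mutant and no control UMI, at least 37.7-fold higher against 3 counts over the control compartment. Dst, which encodes a cytolinker whose epithelial isoform joins the alpha 6 and beta 4 integrin to keratin, had 28.9 CPM in the mutant and 7.63 CPM in the control (3.79-fold higher, 2.62 to 5.69).

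In AT2-like cells (215 mutant, 1254 control), few members differed by 2-fold. Of 20 measured, 1 was at least 2-fold lower (Col4a3) and 1 at least 2-fold higher (Itga6), against 4.83% and 7.43% of all genes measured in the class. The median log2 ratio was 0.23, against 0.19 over all genes measured. Most mutant AT2-like cells lay in cluster 8 (179 mutant, 62 control cells) and most control cells in clusters 0 and 2 (36 mutant, 1192 control cells), so the ratios also compare those clusters. Col4a3 had 5.33 CPM (9 UMIs) in mutant and 13.9 CPM in control AT2-like cells (ratio 0.384, 0.172 to 0.751), levels far below those of the control AT1 compartment. Col4a4 had 14.2 and 22.5 CPM (ratio 0.632, 0.396 to 0.966) and Col4a5 11.3 and 20.5 CPM (ratio 0.548, 0.323 to 0.879). Col4a1 and Col4a2 lay near 1, at 0.952 (0.819 to 1.10) and 0.901 (0.785 to 1.03). Itga6, Itgb1 and Npnt were higher in mutant AT2-like cells. Itga6 had 51.5 CPM, against 24.4 CPM in control cells (2.12-fold higher, 1.63 to 2.72). Npnt had 130.3 and 72.7 CPM (ratio 1.79, 1.53 to 2.09), opposite in sign to the AT1 compartment, and Itgb1 had 161 and 84.1 CPM (ratio 1.91, 1.66 to 2.19). Scaling by the median ratio of well-counted genes takes 0.28 off the log2 ratios of this class, which leaves 0.80 for Itga6, 0.56 for Npnt and 0.65 for Itgb1. Within cluster 8, a comparison chosen after the data had been seen, the direction of Itga6 turned: it had 55.1 CPM in mutant and 65.2 CPM in control cells (ratio 0.845, 0.575 to 1.26). Npnt and Itgb1 were higher in the mutant there as well, with ratios of 2.36 (1.67 to 3.42) and 1.65 (1.26 to 2.20). Col4a3, from 8 mutant and 3 control UMIs, had 5.65 and 4.55 CPM in cluster 8, so its lower level was not seen there, and the ratios of Col4a4 and Col4a5 were 0.632 (0.300 to 1.36) and 0.757 (0.291 to 2.11). Over all AT2-like cells Lamb1 had 19.0 CPM in mutant and 32.9 CPM in control cells (ratio 0.577, 0.388 to 0.831), while its ratio within cluster 8 was 0.998 (0.513 to 2.04). Over the class the ratios of Lamb2, Lamb3, Lama5, Lamc1 and Agrn lay between 0.848 and 1.47. The 13 members without a ratio there were Col4a6, Lama1, Lama2, Lama4, Lamc3, Nid1, Nid2, Itga1, Itga2, Itga8, Itgb4, Itgb5 and Itgb8.

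**Figure D3:**
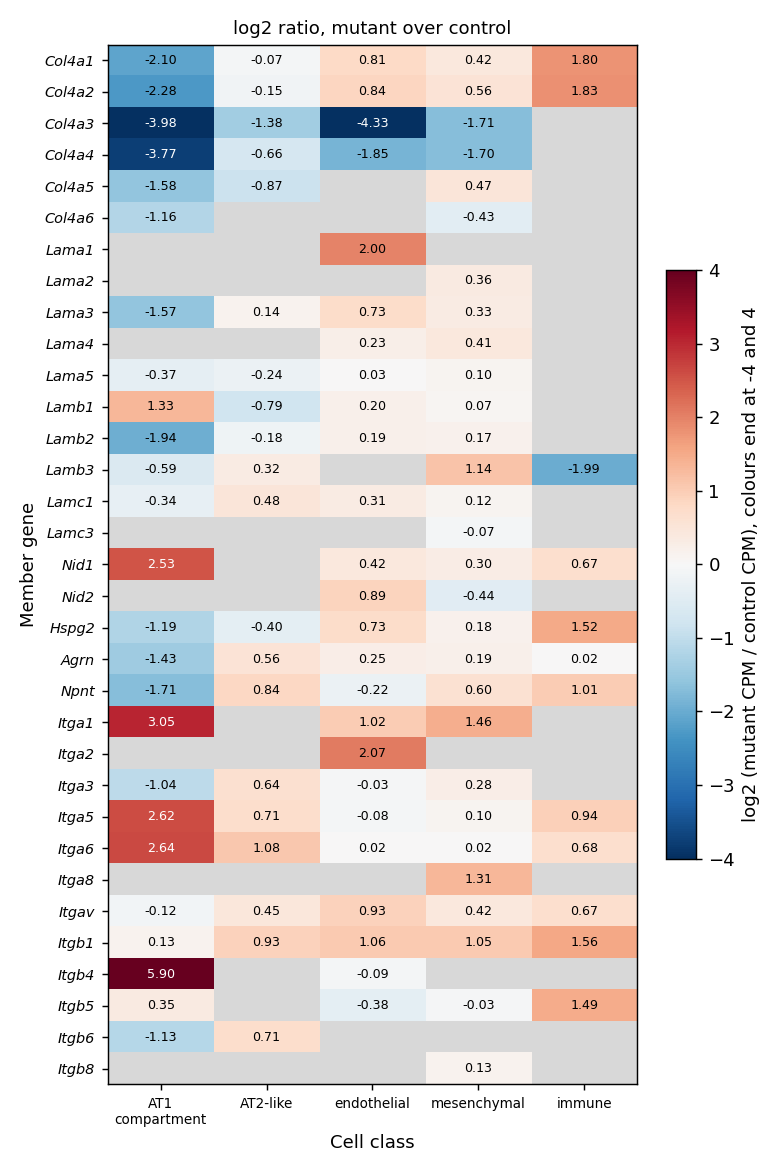
The log2 ratio of CPM, mutant over control, of each of the 33 genes in 5 cell classes; blue is lower and orange-red higher in the mutant, colours end at -4 and 4, and grey marks fewer than 20 UMIs over both libraries or no ratio. Collagen IV genes are lower in the AT1 compartment, where Itgb1 is at 0.13, while Itgb1 is between 0.93 and 1.56 in the other 4 classes.

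In endothelial cells (482 mutant, 589 control) the genes of the widespread collagen IV trimer and of its integrin receptors were higher in the mutant. Of 25 members measured, 2 were at least 2-fold lower and 4 at least 2-fold higher, against 2.20% and 7.11% of all genes measured there. The median log2 ratio was 0.25 over the members, against 0.08 over all genes measured. Col4a1 had 1143 CPM in mutant and 653 CPM in control endothelial cells (ratio 1.75, 1.65 to 1.85), and Col4a2 had 1285 and 715 CPM (ratio 1.80, 1.70 to 1.90). Itgb1 had 809.9 CPM in mutant cells, against 389 CPM in control cells (2.08-fold higher, 1.94 to 2.24). Its collagen-binding partners were higher as well: Itga1 had 75.9 CPM in mutant and 37.5 CPM in control cells (2.02-fold higher, 1.60 to 2.57), and Itga2 had 20.6 and 4.91 CPM (4.20-fold higher, 2.32 to 8.15). The laminin- and fibronectin-binding alpha chains lay near 1, with ratios of 1.02 (0.906 to 1.14) for Itga6, 0.977 (0.730 to 1.31) for Itga3 and 0.948 (0.755 to 1.19) for Itga5. Itgav had 22.7 CPM in mutant and 11.9 CPM in control cells (ratio 1.91, 1.24 to 2.98), and Itgb5 23.8 and 30.8 CPM (ratio 0.771, 0.553 to 1.07).

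Nid1 had 148 CPM in mutant and 110.4 CPM in control endothelial cells (ratio 1.34, 1.16 to 1.56), and Hspg2 had 73.4 and 44.1 CPM (ratio 1.66, 1.33 to 2.09). The laminin chains Lama4, Lama5, Lamb1, Lamb2 and Lamc1 had ratios between 1.02 and 1.24. Lama1 was the fourth member at least 2-fold higher, from 20 mutant and 5 control UMIs (ratio 3.99, 1.45 to 13.6). The 2 members at least 2-fold lower were Col4a3, with 1 mutant and 20 control UMIs, and Col4a4, with 5 and 18 UMIs. After subtraction of the free RNA profile, estimated at 1.94% of mutant and 3.57% of control endothelial UMIs, no member was at least 2-fold lower there. Neither Col4a3 nor Col4a4 then had a ratio, so this setting cannot show whether they stayed lower. In the settings that measured them, the log2 ratios ran from -4.68 to -4.07 for Col4a3 and from -2.05 to -1.45 for Col4a4. Npnt had 12.9 CPM in mutant and 15.1 CPM in control endothelial cells (ratio 0.858, 0.538 to 1.36). The 8 members without a ratio were Col4a5, Col4a6, Lama2, Lamb3, Lamc3, Itga8, Itgb6 and Itgb8.

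The endothelial subtypes showed where the 2 collagen IV genes were higher. In Car4-high capillary-like cells (70 mutant, 88 control), the capillary type that lines much of the gas exchange surface, Col4a1 had 1452 CPM in the mutant and 816 CPM in the control (ratio 1.78, 1.57 to 2.02). In Plvap-high capillary-like cells (284 mutant, 359 control) it had 1229 and 711 CPM (ratio 1.73, 1.61 to 1.86), although mutant cells of this type lay mainly in 1 cluster (263 cells) and control cells in 2 others (355 cells). Cycling endothelial cells gave a ratio of 1.72 (1.45 to 2.03) and venous-like cells one of 2.88 (1.86 to 4.62). Arterial-like cells (24 mutant, 67 control) went the other way, with 191 CPM in the mutant and 351 CPM in the control (ratio 0.545, 0.352 to 0.821), and Col4a2 had a ratio of 0.476 (0.313 to 0.703) there. Markers of other cells moved with these values: the 10 AT2 markers summed to 249 CPM in mutant (4 at 0) and 10769 CPM in control arterial-like cells (0 at 0), the 14 AT1 markers to 332 CPM (6 at 0) and 1364 CPM (0 at 0), and the 4 neutrophil markers to 1020.4 CPM (1 at 0) and 18.6 CPM (2 at 0). The 6 immune lineage markers summed to 159 CPM in mutant and 0 CPM in control arterial-like cells. The part of these cells in the ratios was not tested. Itgb1 was higher in the mutant in all 5 endothelial subtypes, arterial-like cells included (829 CPM in mutant and 376 CPM in control cells, ratio 2.21, 1.71 to 2.85).

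**Figure D4:**
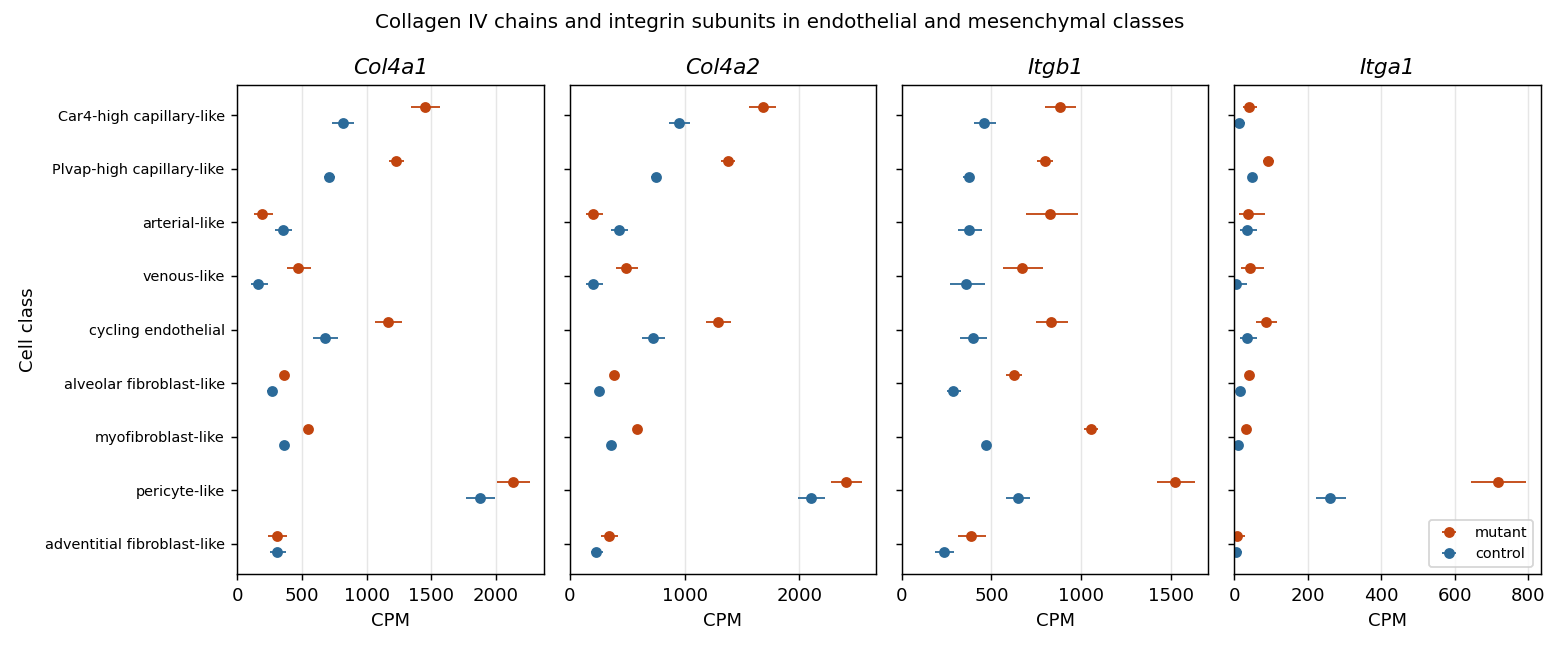
CPM of Col4a1, Col4a2, Itgb1 and Itga1 in 5 endothelial and 4 mesenchymal classes, mutant in orange above control in blue, with exact Poisson 95% intervals. Itgb1 is higher in the mutant in all 9 classes, Col4a1 and Col4a2 are lower in arterial-like cells, and Itga1 reaches its highest level in pericyte-like cells of the mutant (717 CPM, against 261 CPM in the control).

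In mesenchymal cells (1010 mutant, 1080 control) 29 members were measured, 2 at least 2-fold lower and 4 at least 2-fold higher, against 2.49% and 6.82% of all genes measured in the class. The median log2 ratio was 0.19, against 0.04 over all genes measured. Itgb1 had 905 CPM in mutant and 438 CPM in control cells (2.07-fold higher, 1.98 to 2.16), and Itga1 95.1 and 34.5 CPM (2.76-fold higher, 2.37 to 3.22). In pericyte-like cells (92 mutant, 142 control), the cells that wrap capillaries, Itgb1 had 1527 CPM in the mutant and 646 CPM in the control (ratio 2.36, 2.09 to 2.68), and Itga1 had 717 and 261 CPM (ratio 2.74, 2.27 to 3.33). Myofibroblast-like cells (397 mutant, 530 control, in different clusters) gave ratios of 2.25 (2.11 to 2.39) for Itgb1 and 2.65 (1.81 to 3.92) for Itga1. Both integrin genes of this collagen receptor were thus higher in both types.

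Col4a1 had 639 CPM in mutant and 476 CPM in control mesenchymal cells (ratio 1.34, 1.28 to 1.41), and Col4a2 715 and 486 CPM (ratio 1.47, 1.41 to 1.54). Pericyte-like cells had the highest level of both genes in either library. There Col4a1 had 2131 CPM in the mutant and 1875 CPM in the control (ratio 1.14, 1.04 to 1.24), against ratios of 1.36 (1.15 to 1.61) in alveolar fibroblast-like, 1.51 (1.40 to 1.63) in myofibroblast-like and 0.984 (0.719 to 1.34) in adventitial fibroblast-like cells. The mesenchymal laminin chains Lama2, Lama4, Lama5, Lamb1, Lamb2 and Lamc1 had ratios between 1.05 and 1.33, and Nid1 and Hspg2 had ratios of 1.23 and 1.13. Nid2 was lower in pericyte-like cells, with 52.6 CPM in the mutant (27 UMIs) and 112 CPM in the control (67 UMIs), a ratio of 0.469 (0.288 to 0.743). Itgb5 and Itga5 lay near 1 over all mesenchymal cells (0.978, 0.860 to 1.11, and 1.07, 0.842 to 1.37). The members at least 2-fold lower were again Col4a3 (5 mutant and 19 control UMIs) and Col4a4 (9 and 34 UMIs). After subtraction of free RNA none was, but Col4a3 then had no ratio. In the settings that measured them, the log2 ratios ran from -2.08 to -1.06 for Col4a3 and from -1.73 to -0.78 for Col4a4. Lamb3, the fourth member at least 2-fold higher beside Itgb1, Itga1 and Itga8, had 17 mutant and 9 control UMIs (ratio 2.20, 0.927 to 5.6). Col4a5 had 26.9 CPM in mutant and 19.4 CPM in control mesenchymal cells (ratio 1.39, 1.10 to 1.76), and Col4a6 16 and 25 UMIs (ratio 0.745, 0.371 to 1.45). Lama1, Itga2, Itgb4 and Itgb6 had no ratio there.

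Npnt and its receptor gene Itga8 were both highest in alveolar fibroblast-like cells, the Tcf21-expressing fibroblasts that hold lipid droplets. Over all mesenchymal cells Itga8 had 148 CPM in the mutant and 59.6 CPM in the control (2.48-fold higher, 2.21 to 2.80), and Npnt 323 and 213 CPM (ratio 1.52, 1.42 to 1.62). Within alveolar fibroblast-like cells, however, Itga8 had 327 CPM in the mutant and 277 CPM in the control (ratio 1.18, 0.995 to 1.40), and Npnt 1385 and 1728 CPM (ratio 0.802, 0.745 to 0.862). These cells were 217 of 1010 mesenchymal cells in the mutant and 131 of 1080 in the control. For Npnt the higher mesenchymal sum was thus not matched within the cell type where it was highest. For Itga8 the ratio in that type was smaller than over all mesenchymal cells. The mesenchymal sums also hold unnamed clusters and a smooth muscle cluster, which are in none of the cell types compared here. The part of cell numbers in the mesenchymal ratios was not tested. Over the 3 classes outside the AT1 compartment where Itga8 was measured, its ratios ran from 1.18 to 2.62. Npnt was also lower in mutant pericyte-like cells, with 150.0 CPM, against 236 CPM in control cells (ratio 0.635, 0.475 to 0.844).

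In endothelium and mesenchyme the same lists stand against 2.20% and 2.49% of all genes measured that were at least 2-fold lower, and 7.11% and 6.82% that were at least 2-fold higher. Of other basement membrane components, 1 of 11 measured in endothelium was at least 2-fold higher (Col18a1, 2.19, 1.45 to 3.37), and 3 of 19 in mesenchyme, among them Fn1 with 1063 CPM in mutant and 508 CPM in control cells (2.09-fold higher, 2.01 to 2.18). Sparc, much lower in the AT1 compartment, had ratios of 0.996 (0.961 to 1.03) in endothelium and 0.715 (0.703 to 0.726) in mesenchyme. Among the collagen folding genes none was 2-fold changed in either lineage, and Serpinh1, a collagen chaperone, had 875 CPM in mutant and 1367 CPM in control mesenchymal cells (ratio 0.640, 0.618 to 0.662). Of the proteases and inhibitors, Adamts1 had a ratio of 2.30 (2.10 to 2.52) in mesenchyme and 1.69 (1.5 to 1.89) in endothelium, and Timp3 ratios of 1.75 (1.64 to 1.87) and 1.80 (1.64 to 1.99). Of the adaptors, 12 of 15 measured in mesenchyme and 12 of 16 in endothelium had a ratio above 1, against 53.3% and 56.9% of all genes measured, with Tln1 (talin, which couples integrins to actin) at 1.65 (1.54 to 1.78) and 1.79 (1.56 to 2.06) and Plec at 2.25 (1.92 to 2.65) and 1.54 (1.34 to 1.79). Ilk, whose product binds the tail of beta 1 integrin, had a ratio of 0.628 (0.586 to 0.671) in mesenchyme.

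Immune cells (178 mutant, 335 control) held few UMIs of most members. Of 12 measured, 1 was at least 2-fold lower and 6 at least 2-fold higher, against 5.61% and 9.18% of all genes measured there, with a median log2 ratio of 0.98, against 0.10 over all genes. Itgb1 had 216 CPM in mutant and 73.3 CPM in control immune cells (2.95-fold higher, 2.38 to 3.66), and Itgb5 had 43.2 and 15.4 CPM (2.81-fold higher, 1.74 to 4.61). Col4a1 had 59.1 CPM (67 UMIs) in the mutant and 17.0 CPM (32 UMIs) in the control, Col4a2 had 82.9 and 23.4 CPM, Hspg2 16.8 and 5.84 CPM and Npnt 15 and 7.43 CPM. Nid1, Agrn, Itga5, Itga6 and Itgav had ratios between 1.02 and 1.92 with intervals that include 1, and the other 21 members, the remaining collagen IV and laminin chains among them, had too few UMIs. Markers of other cells moved with the 4 matrix genes: the 10 pericyte markers summed to 161 CPM in mutant (0 at 0) and 10.1 CPM in control immune cells (2 at 0), and the 8 mesenchymal markers to 329.8 CPM (1 at 0) and 106 CPM (0 at 0). In T cell-like cells (22 mutant, 83 control), where Col4a2 had 235 and 22.5 CPM, the pericyte markers summed to 899 and 2.05 CPM. Their part in the ratios was not tested. Free RNA was estimated at 8.56% of mutant and 4.18% of control immune UMIs, and after its subtraction the log2 ratios were 3.40 for Col4a1 and 2.91 for Col4a2. With single cells classed by marker score in place of clusters, the immune median turned to -0.043 and Npnt to -1.13, and Col4a1 (0.53), Col4a2 (0.34) and Hspg2 (0.35) were no longer 2-fold higher. Lamb3 had 11.5 CPM in mutant and 45.7 CPM in control immune cells (3.98-fold lower, 2.21 to 7.78). In B cell-like cells, which were 30 of 178 mutant and 141 of 335 control immune cells, it had 51.3 CPM in the mutant and 84.9 CPM in the control.

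Itgb1 had the same direction in every class outside the AT1 compartment. Over the 15 other classes compared (AT2-like, ciliated-like, club-like, 5 endothelial, 4 mesenchymal and 3 immune), it was higher in the mutant in 15, with ratios from 1.63 to 3.64. The median log2 ratio of all genes measured in these classes lay between -0.028 and 0.19. Of all genes measured in each of those 15 classes, 4.79% were higher in the mutant in every one. Within the AT1 compartment its ratio of 1.09 (1.03 to 1.16) set clusters of different make-up side by side: it had 514 CPM in mutant cluster 5 and 245 CPM in mutant cluster 1, against 332 CPM in control cluster 3. The classes come from the same 2 libraries, so they are not independent replicates of this difference. Itga1 was higher in the mutant in 6 of the 6 other classes where it was measured (1.90 to 3.02), each with an interval above 1. Itgav was higher in 7 of 7 (1.20 to 1.77), but only 1 of these intervals lay above 1. The share of all genes that were higher in the same sets of classes was not computed. Col4a1 was higher in 8 of 12 and Hspg2 in 6 of 11.

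Across 32 points (16 classes in 2 libraries), the levels of the partners of each head-to-head collagen IV pair, as log2(CPM + 1), were correlated. Col4a1 and Col4a2 had a Pearson's r of 0.985 (Spearman's rho 0.987), the highest of the 528 pairs of members. Col4a5 and Col4a6 had a Pearson's r of 0.838 (rho 0.817, rank 6), Col4a3 and Col4a4 a Pearson's r of 0.818 (rho 0.649, rank 12), and the ligand and receptor genes Npnt and Itga8 a Pearson's r of 0.530 (rho 0.480, rank 103), where the median over all 528 pairs was 0.265. The points share libraries and differ in depth, so these are descriptions. Col4a1 and Col4a2 each had enough UMIs for a ratio in 13 of the 16 classes. Col4a3 had enough in 2, Col4a4 in 3, Col4a5 in 6 and Col4a6 in 1. The correlations of Col4a3 with Col4a4 and of Col4a5 with Col4a6 thus rest mostly on classes with few UMIs. They cannot show how similar the partners are in those classes. By class, Col4a3 and Col4a4 were carried by the AT1 compartment in both libraries, although in the mutant at 49.5 and 64.0 CPM. The AT1 compartment also had the highest level of Lama3, Lama5, Lamb3, Agrn and Itgb6 of the 16 classes in both libraries. For Col4a5, Col4a6, Hspg2, Lamb2 and Itga3, the AT1 compartment was the highest class in the control and another class was in the mutant. That mutant class was adventitial fibroblast-like (39 cells) for Col4a5 (69.7 CPM), Col4a6 and Hspg2 (164 CPM). It was arterial-like (24 cells) for Lamb2 and Car4-high capillary-like (70 cells) for Itga3. The Col4a5 level lay close to that of the mutant AT1 compartment. These classes are small, and counting error was not weighed in the ranks. Members that were low or absent in the AT1 compartment were carried by other cells. Lamc3 was highest in adventitial fibroblast-like cells (39 mutant, 50 control), with 41.0 CPM in the mutant and 27.2 CPM in the control, as was Itgb8, with 36.9 and 33.2 CPM. Lamc3 had enough UMIs for a ratio in none of the 16 classes and Itgb8 in 3, so these ranks rest on few UMIs. Nid1, Nid2, Lama4 and Itga1 were highest in pericyte-like cells of both libraries, and Itga8 in alveolar fibroblast-like cells of both.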

How the data were processed

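The authors deposited a matrix of raw UMI counts per gene and cell for each library. Per the labels' protocols these came from the Chromium 3′ kit (v2), and the submitters' processing notes name Cell Ranger, Seurat and mm10 (versions not given in the sources used here). Cells with at least 500 genes and under 10% mitochondrial UMIs were kept, and the top Scrublet scores at 0.8% per 1000 cells (156 mutant, 137 control) were removed. Cells were clustered with scanpy 1.11.5 without integration (2000 variable genes without the members, 30 components, Leiden resolution 1), then within each lineage. Clusters were named from markers (mean log2 fold of at least 1.5 with 3 markers detected, or, for endothelial and mesenchymal types with no such cluster, a relative level of 0.65). The doublet share and the relative level were chosen after seeing the data. Clusters with markers of 2 lineages were left out (87 mutant, 51 control cells).

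UMIs were summed per class and library and scaled to 1000000 (CPM). Ratios have exact conditional binomial, levels exact Poisson and shares exact Clopper-Pearson 95% intervals, for counting error only. A count of 0 was set to 3 counts over the class. No test was run. Given in full per class were the 5 members with the highest CPM and the 5 with the largest ratio each way (at least 20 UMIs, and 20 CPM in the higher library), the collagen IV pairs, Npnt and Itga8, and up to 3 genes of each list each way. Members, lists and alternatives were chosen with earlier results of these data known. The ratio calculation was checked on simulated Poisson counts with known folds. That simulation had no spread between cells or animals, so it checks the arithmetic only. Lepre1 and Glt25d1, from the lists, had no row.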

Additional observations from a re-analysis of the deposited data

Results flagged for a closer look

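For 3 members the mutant was at least 2-fold lower than the control in the AT1 compartment and at least 2-fold higher in immune cells, with both counting intervals clear of 1. The log2 ratios differed by -3.89 for Col4a1 (-2.10 in the AT1 compartment and 1.80 in immune cells), by -4.11 for Col4a2 (-2.28 and 1.83) and by -2.71 for Hspg2 (-1.19 and 1.52). With 1 library per genotype these differences between classes were not tested. Pericyte markers moved with the immune values (161 CPM in mutant and 10.1 CPM in control immune cells), and their part was not tested. With single cells classed by marker score, the immune log2 ratios were 0.53 for Col4a1, 0.34 for Col4a2 and 0.35 for Hspg2, so none was 2-fold higher, and with doublets kept Col4a2 was at 0.87. Within cluster 9 of the AT1 compartment the log2 ratios were 0.24 for Col4a1, 0.35 for Col4a2 and 0.027 for Hspg2. In alveolar macrophage-like cells, which hold 44 mutant and 39 control cells, Col4a2 had 5 mutant and 10 control UMIs.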

How the results depend on the processing

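Of 1207 recomputed log2 ratios of measured members, 1016 stayed within their counting interval, and 191 left it. A change of the minimum to 1 or 100 UMIs leaves every ratio it keeps unchanged. Those settings could thus not move a ratio, and they raise the 1016. The sign changed in 87 of the 1207, in 18 of these 87 for a member at least 2-fold different before. These were Agrn (0.25), Col4a6 (0.29), Lama3 (0.067), Lamb1 (-1.81), Hspg2 (0.43), Itga3 (0.52) and Itgb6 (0.66) over all epithelial cells, and Npnt in immune cells (-1.13) with single cells classed by markers. In comparisons within a cluster that both libraries share, chosen after seeing the data, they were Col4a4 (0.23), Col4a3 (0.32), Col4a2 (0.35), Col4a1 (0.24), Col4a5 (0.30), Lama3 (0.21), Hspg2 (0.027), Itga3 (0.84) and Itgb6 (0.64) in cluster 9 and Itga6 (-0.24) in cluster 8. Members within 2-fold that changed sign include Itgb5 in AT1-like clusters only (-2.11), Itgav over all epithelial cells (0.76), Lamc1 (-0.72) and Lama3 (-1.27) in AT2-like and Npnt in endothelial non-cycling cells (0.96), and Col4a5 in AT2-like cells after thinning (0.10). Itgb4 in the AT1 compartment ranged from 3.07 to 6.06 in log2. Median-of-ratios scaling took off a shift in log2 of -0.10 in the AT1 compartment, 0.28 in AT2-like cells and 0.14 in immune cells, which brought Itgb1 in AT2-like cells to 0.65. Counts of members at least 2-fold lower or higher that moved by over 1.5 times, and medians that left their interval, were as follows; all others stayed. AT1 compartment (13 lower, 6 higher, median -1.04): 8 lower in non-cycling cells only, 6 lower and 1 higher in AT1-like clusters only, median 0.47 and 6 lower in all epithelial cells, median 0.31 and 0 lower and 1 higher in cluster 9 only. AT2-like (1 lower, 1 higher): 4 higher with genes with at least 1 UMI, 3 higher with doublets kept, 2 lower and 0 higher with a mitochondrial share under 5%, 2 lower and 2 higher with a mean over cells, 3 lower and 0 higher with median-of-ratios scaling, 3 lower and 4 higher with cells thinned to 1500 UMIs, 0 lower and 6 higher with single cells classed by markers, 4 lower and 2 higher in non-cycling cells only, 0 lower in cluster 8 only. Endothelial (2 lower, 4 higher): 0 lower and 2 higher with genes with at least 100 UMIs, 1 lower with doublets kept, 1 lower with a mitochondrial share under 5%, 0 lower with free RNA subtracted, 0 lower and 2 higher with cells thinned to 1500 UMIs, 0 lower and 1 higher in non-cycling cells only. Mesenchymal (2 lower, 4 higher): 0 lower with genes with at least 100 UMIs, 1 lower with doublets kept, 1 lower with a mitochondrial share under 5%, 0 lower with free RNA subtracted, 0 lower and 2 higher with cells thinned to 1500 UMIs, 1 lower in non-cycling cells only. Immune (1 lower, 6 higher, median 0.98): 4 lower and 17 higher with genes with at least 1 UMI, median 1.69 and 0 lower and 2 higher with genes with at least 100 UMIs, 2 lower with doublets kept, 3 higher with cells thinned to 1500 UMIs, median -0.043 and 4 lower and 3 higher with single cells classed by markers, 2 higher in non-cycling cells only. Fewer genes or cells entered under the minimum of 100 UMIs, the thinning, the non-cycling setting and the single clusters. In endothelium, Col4a3 and Col4a4 were at least 2-fold lower wherever they had a ratio. Smaller counts of lower members there thus came from ratios that were lost. With free RNA subtracted, the ratios were lost because the subtraction itself took UMIs off, so that setting cannot show whether Col4a3 and Col4a4 stayed lower. The cause of the other moves was not tested. No paired analysis was possible because each genotype has 1 library. Members under 20 UMIs in a class are limited by depth, and no interval covers the spread between animals.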

Other observations

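In ciliated-like airway cells (42 mutant, 98 control), Itgb4 had 87.6 CPM in mutant and 58.0 CPM in control cells (ratio 1.51, 0.852 to 2.60), so both libraries carried this hemidesmosomal integrin gene outside the AT1 compartment. Itgb1 had 221 and 117 CPM there (ratio 1.89, 1.31 to 2.68). In adventitial fibroblast-like cells (39 mutant, 50 control), Lama2, the laminin chain of muscle and stromal basement membranes, had 209 CPM in mutant and 121 CPM in control cells (ratio 1.73, 1.12 to 2.69), and in alveolar fibroblast-like cells 84.1 and 46.7 CPM (ratio 1.80, 1.22 to 2.73). Npnt had 24.6 CPM (6 UMIs) in mutant and 84.6 CPM (28 UMIs) in control adventitial fibroblast-like cells (ratio 0.291, 0.0984 to 0.715). Venous-like cells (39 mutant, 29 control) had 300.1 CPM of Itga6 in the mutant and 175 CPM in the control (ratio 1.71, 1.08 to 2.77).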
